A study of Caenorhabditis elegans with 4 samples.

Results

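The 33 body wall muscle genes described here encode parts of the sarcomere of Caenorhabditis elegans and of the complexes that anchor it to the muscle cell membrane, and they were followed through a map of UNC-62 binding. The genes were given as a named list and were found by symbol in the Ensembl annotation of ce11 (WBcel235), where all 33 matched, out of 19973 protein-coding genes on the 6 nuclear chromosomes. By role, the list holds 7 thick filament genes, 11 thin filament genes, 3 giant filament proteins, 10 attachment genes and 2 transcription factors. A gene was scored at its start when the summit of a listed region lay in its start window. That window reached 1000 bp upstream and 200 bp downstream from any annotated transcript start. A gene was scored in its body when a summit lay between the ends of the annotated gene.

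UNC-62 is a TALE-class homeodomain protein, and chromatin immunoprecipitation followed by sequencing (ChIP-seq) against its eGFP-tagged form was carried out on whole L3 larvae of mixed sex. The labels give 4 biological replicates of 1 group, strain OP600, which carries the unc119(ed3) mutation and the insertion wgIs600. That insertion holds unc-62 joined to TY1, EGFP and FLAG tags, with unc119 as a second gene. Replicates 1 and 2 are labelled with fragment sizes between 150 and 350 bp and came from a stock centre, whereas replicates 3 and 4 carry microtip sonication and came from the laboratory itself. All 4 replicates share the tag and the mutation, the labels list no lesion of the endogenous unc-62 gene, and no untagged strain was analysed here. The immunoprecipitated DNA came from all tissues of the larva, so binding in fewer cells and weaker binding in each cell cannot be told apart, and the lists hold no expression value against which the muscle identity of the genes could be checked.

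Body wall muscle of the worm is built of obliquely striated sarcomeres. Thick filaments of myosin and paramyosin are linked at the M-line, and thin filaments of actin with tropomyosin and troponin are anchored at dense bodies. Both structures are tied through integrin to perlecan in the basement membrane, and loss of several of these proteins stops elongation of the embryo or leaves the animal uncoordinated, the phenotypes behind the gene names pat and unc. Relatives of UNC-62 in flies and vertebrates, Homothorax and the MEIS proteins, act on DNA as partners of PBX and Hox proteins.

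Of the 33 genes, 1 had a summit at a start in the authors' list of optimal peaks. In the authors' longer list of merged regions, which includes background by its naming, 21 had one. The optimal list holds 1037 peaks and the merged list 18556 regions, and all 1037 optimal peaks were the 1037 highest merged regions by signal. The gene with an optimal peak was unc-112, which encodes the worm kindlin, an integrin-binding protein of the attachment complexes. Of the muscle genes 3.03% had an optimal summit at a start, against 2.63% of all coding genes. For the merged list the share was 63.6% of the muscle genes, against 29.1% of all coding genes. No test was made of these shares, since the genes were listed with earlier results of the same data known.

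The sequences around the summits of the unc-112 peak and of a start region of 4 other genes are shown. They are examples of the higher-ranked regions at muscle gene starts, and start regions of other genes with ranks between these are not shown. Each is the merged-list summit with 50 bp on either side, on the forward strand of the WBcel235 (ce11) reference and written 5′ to 3′. Capitals mark a match to TGACAG, the core site of MEIS-type TALE proteins, or to GAGAGAGA, a GA repeat, on either strand. They lie at chrV:14697017-14697117 for unc-112, chrX:4962286-4962386 for act-4, chrV:11080415-11080515 for act-1, chrX:6410552-6410652 for mup-2 and chrIII:3914854-3914954 for pat-3.
unc-112: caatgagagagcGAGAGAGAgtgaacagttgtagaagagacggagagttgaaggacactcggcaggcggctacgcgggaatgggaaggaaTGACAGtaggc
act-4: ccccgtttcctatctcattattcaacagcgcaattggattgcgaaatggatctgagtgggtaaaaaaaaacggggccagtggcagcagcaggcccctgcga
act-1: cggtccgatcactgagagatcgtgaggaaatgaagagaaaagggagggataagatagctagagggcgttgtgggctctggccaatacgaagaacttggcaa
mup-2: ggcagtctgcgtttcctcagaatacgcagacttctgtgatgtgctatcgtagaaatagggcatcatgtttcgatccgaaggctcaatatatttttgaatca
pat-3: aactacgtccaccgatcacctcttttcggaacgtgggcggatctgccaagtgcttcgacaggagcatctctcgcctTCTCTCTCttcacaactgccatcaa
The unc-112 window holds a GA repeat from base 13 and a TGACAG from base 91, and it had a GC content of 54.5%. The pat-3 window holds a GA repeat on its reverse strand from base 77. The act-4, act-1 and mup-2 windows hold neither pattern, which says only that they are not within these windows.

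Signal values in the deposited lists are the authors' own and are on a different scale in each list, with a highest value of 243.8 in the merged list and of 133.9, 53.8, 56.6 and 30.5 in the lists of replicates 1 to 4. Regions were therefore compared by their rank within a list, with rank 1 the highest signal. The lists of replicates 1, 2 and 3 hold 30000 regions each and that of replicate 4 holds 28073. These lists and the merged list include background by the authors' own naming, so presence in one of them is a weak statement. The best summit of a gene can lie in a different region, or at a different start, in each list. The depth behind a region is unknown because the lists hold no read counts.

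**Figure D1:**
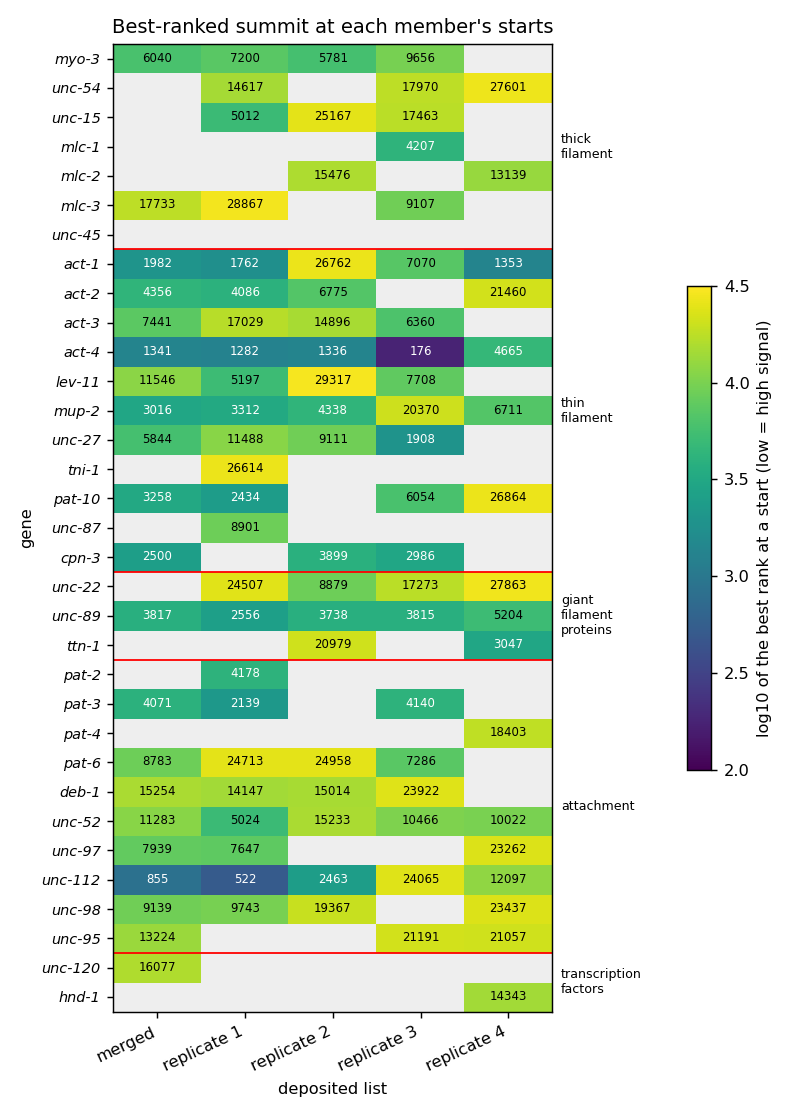
Best-ranked summit at the starts of each of the 33 body wall muscle genes (rows, grouped by role) in the merged list and in each replicate list (columns). Numbers and colour give the rank, dark for high signal, and grey means no summit in the start windows. The darkest cells are act-4 in replicate 3 (rank 176) and unc-112 in replicate 1 (rank 522), and no gene is dark in all 4 replicates.

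The unc-112 region lay at chrV:14696889-14697244 upstream of the gene, with its summit 413 bp before the start. Its merged rank was 855, its signal 40.8 and its −log10 q-value 3.42, where the lowest signal of an optimal peak was 37.3. The best summit at the unc-112 start had rank 522 in replicate 1, rank 2463 in replicate 2, rank 24065 in replicate 3 and rank 12097 in replicate 4. Replicates 1 and 2 thus placed it high and replicates 3 and 4 placed it at ranks beyond 10000, a split that follows the 2 sets of labels. With 2 replicates in each set no exact test could reach the usual threshold, and none was made. A further region lay in an intron of unc-112 at chrV:14695262-14695617, with a merged rank of 1626, and ranks of 1147, 15441, 20913 and 3151 in the replicate 1 to 4 regions that overlapped it.

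After unc-112, the best merged start ranks were those of the actin genes act-4 and act-1. Of the 4 muscle actin genes, act-1, act-2 and act-3 lie together on chromosome V and act-4 lies on chromosome X. Their coding sequences are near-identical, and how reads that fit several places were treated is not given in the sources used here, so signal inside these genes is uncertain. The best summits at the act-4 starts had ranks of 1282, 1336, 176 and 4665 in replicates 1 to 4. That of replicate 2 lay at the upstream start and those of replicates 1, 3 and 4 at the intronic one. Only the start summit of replicate 3 was among the 1037 highest regions of its list. Replicate 4 had a higher region, of rank 842, in an act-4 intron, 460 bp past a start and outside the start windows. The merged list held 3 regions at the act-4 starts. The first, of rank 1341 and signal 32.7, lay at chrX:4962158-4962513 in an intron, 539 bp before the start of the shorter transcript, and the replicate regions that overlapped it had ranks of 1282, 16565, 176 and 4665. A second, of rank 2767, overlapped it and was matched by the same replicate regions. The other, of rank 1586 and signal 30.2, lay at chrX:4960400-4960755, with its summit 43 bp before the most upstream start, and was overlapped at ranks of 1359, 1336 and 8981 in replicates 1 to 3 and by no region of replicate 4.

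The act-1 region had a merged rank of 1982 and a signal of 27.1 and lay at chrV:11080287-11080642, with its summit 587 bp upstream. The best act-1 start summits had ranks of 1762, 26762, 7070 and 1353 in replicates 1 to 4, high in replicates 1 and 4 and near the bottom in replicate 2. This summit also lay within the non-coding RNA genes T04C12.16 and T04C12.25, and the summits of the act-2 regions likewise lay within non-coding RNA genes. For act-2 the best merged rank was 4356, with the summit 832 bp upstream, and for act-3 it was 7441, with the summit 48 bp upstream. Neither act-2 nor act-3 was present in all 4 replicates: replicate 3 had no summit at the act-2 start and replicate 4 none at the act-3 starts. No summit of any replicate list lay within the bodies of act-1, act-2 or act-3.

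The other thin filament genes differed among themselves. The start of mup-2, which encodes troponin T, had a region of merged rank 3016 and signal 22.3 at chrX:6410424-6410779. Its summit also lay within the non-coding RNA gene T22E5.10. The region had ranks of 3312, 4338, 20370 and 6711 in replicates 1 to 4. All 4 replicates listed it, and only replicate 3 gave it a rank beyond 10000. The start of cpn-3, a calponin gene, had a merged rank of 2500 with its summit 22 bp upstream, the closest of all, and start summits in replicates 2 and 3, at rank 3899 and at rank 2986. Troponin C, encoded by pat-10, had a merged rank of 3258 in its 5′ UTR, 129 bp before another of its starts. Of the pair of troponin I genes, unc-27 had a merged rank of 5844 and ranks of 11488, 9111 and 1908 in replicates 1 to 3, whereas tni-1 had no merged start summit and only a rank of 26614 in replicate 1. Tropomyosin, encoded by lev-11, had a start rank of 11546 in the merged list and a better one, 3803, in a coding exon of its body. The actin-bundling protein gene unc-87 had no merged start summit, and 1 replicate listed its starts, at rank 8901.

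Thick filament genes had the lowest share of starts with a merged summit of the 5 roles, with 2 of 7, myo-3 and mlc-3. That share, 28.6%, was near the 29.1% of all coding genes. The other roles had 9 of 11 thin filament genes, 8 of 10 attachment genes, 1 of 3 giant filament proteins and 1 of 2 transcription factors. These groups are small and the difference between them was not tested. The gene myo-3, which encodes myosin heavy chain A at the centre of the filament, had a merged rank of 6040 with its summit 563 bp upstream, and ranks of 7200, 5781 and 9656 in replicates 1 to 3 with none in replicate 4. The gene unc-54, which encodes the major myosin heavy chain B, had no merged summit at its start, and ranks of 14617, 17970 and 27601 in replicates 1, 3 and 4. Its nearest merged summit was 1958 bp upstream. Paramyosin, encoded by unc-15, had start ranks of 5012, 25167 and 17463 in replicates 1 to 3. The regulatory light chain genes mlc-1 and mlc-2 appeared in 1 and 2 replicates, and the essential light chain gene mlc-3 had a merged rank of 17733, close to the bottom of the list. The myosin chaperone gene unc-45 had no start summit in the merged list or in any replicate list, and its nearest merged summit was 11168 bp away.

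Among the attachment genes below unc-112, pat-3 stood first, the gene for β-integrin. Its region had a merged rank of 4071 and a signal of 19.6 at chrIII:3914726-3915081, 755 bp upstream, with start ranks of 2139 in replicate 1 and 4140 in replicate 3 and none in the other 2 replicates. Its partner pat-2, the α-integrin gene, had a start summit in replicate 1 only, at rank 4178, and the nearest merged summit was 6410 bp away. The genes of the complex behind integrin differed in the same way. The PINCH gene unc-97 had a merged rank of 7939 and the parvin gene pat-6 one of 8783, whereas the integrin-linked kinase gene pat-4 was listed at its start in replicate 4 only, at rank 18403. Vinculin, encoded by deb-1, had a merged rank of 15254, and the M-line and dense body proteins UNC-98 and UNC-95 had 9139 and 13224 at their gene starts. The unc-98 region was not clear of other genes. Its summit lay within pcyt-1, 252 bp from the unc-98 start and 243 bp from that of F08C6.18. It was the only 1 of the 28 start regions nearest to a gene outside the list.

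Perlecan is encoded by unc-52, whose starts had a merged rank of 11283 and ranks of 5024, 15233, 10466 and 10022 in replicates 1 to 4. Its body ranked higher. The merged list held 9 summits in unc-52, of which 7 lay in introns, between 9.83 and 16.58 kb from the first start. The strongest, of merged rank 2164, lay at chrII:14671975-14672330, and the best body ranks in replicates 1 to 4 were 1782, 4847, 1114 and 1548, all in introns. The 3 replicates with ranks under 2000 had them at 3 separate summits, at 3455, 2374 and 5117 bp upstream of the nearest unc-52 start.

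Of the 2 muscle transcription factors, the SRF-type gene unc-120 had a merged start region of rank 16077, 714 bp upstream, and no start summit in any replicate. The HAND-type bHLH gene hnd-1 had no merged start summit and was listed by replicate 4 only, at rank 14343. Neither gene had a merged summit in its body.

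Across the replicates, a start summit was listed for 24 of 33 muscle genes in replicate 1 (72.7%, against 41.2% of all coding genes) and for 19 in replicate 2 (57.6%, against 38.6%). It was listed for 21 in replicate 3 (63.6%, against 38.4%) and for 17 in replicate 4 (51.5%, against 36.1%). The mean share was 61.4% ± 9.05 for the muscle genes and 38.6% ± 2.07 for all coding genes (SD, n = 4). In every replicate the muscle genes were above the background of all genes, and replicate 4 was the lowest for both. At least 3 replicate lists held a start summit for 18 muscle genes (54.5%), against 23.3% of all coding genes. The 7 genes listed in all 4 replicates were act-1, act-4, mup-2, unc-22, unc-89, unc-52 and unc-112.

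**Figure D2:**
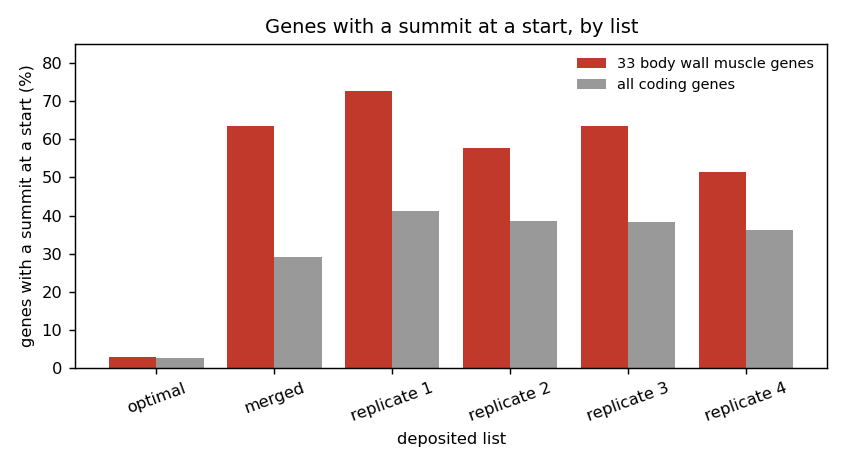
Share of genes with a summit at a start (vertical axis, percent) in each deposited list, with the 33 body wall muscle genes in red and all coding genes in grey. The 2 bars are near each other in the optimal list (3.03% and 2.63%) and apart in the merged list (63.6% and 29.1%) and in each replicate list.

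The picture differed when each replicate was restricted to as many of its highest regions as there are optimal peaks, 1037. Then 1 muscle gene had a start summit in replicate 1, unc-112 (3.03%, against 2.49% of all coding genes), and 0 in replicate 2, against 2.54%. In replicate 3 it was act-4 alone (3.03%, against 2.45%), and in replicate 4 there were 0, against 2.04%. No muscle gene had a start summit among these highest regions in at least 2 replicates, against 2.25% of all coding genes. The mean share was 1.52% ± 1.75 for the muscle genes and 2.38% ± 0.228 for all coding genes (SD, n = 4), so with 33 genes a count of 0 or 1 was near the background in each replicate.

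Counting down the merged list showed where the muscle genes entered. Among the 2000 highest regions 3 of them had a start summit (9.09%, against 4.9% of all coding genes), and among the 5000 highest there were 9 (27.3%, against 10.9%). Among the 10000 highest there were 15 (45.5%, against 18.4%). The 8 genes that entered between ranks 1038 and 5000 were act-1, act-2, act-4, mup-2, pat-10, cpn-3, unc-89 and pat-3, of which 6 are thin filament genes. They made up 24.2% of the muscle genes, against 8.27% of all coding genes. Ranks 5001 to 10000 added myo-3, act-3, unc-27, pat-6, unc-97 and unc-98, and the ranks beyond added mlc-3, lev-11, deb-1, unc-52, unc-95 and unc-120. The −log10 q-values of these start regions fell early in the list, from 3.42 for the unc-112 peak. They were 2.95 for act-4 at rank 1341, 2.37 for act-1 at rank 1982 and 1.32 for mup-2 at rank 3016. Further down they were 1.2 for pat-10 at rank 3258, 0.86 for pat-3 at rank 4071 and 0.47 for myo-3 at rank 6040. Beyond rank 10000 all were 0.14 or less.

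**Figure D3:**
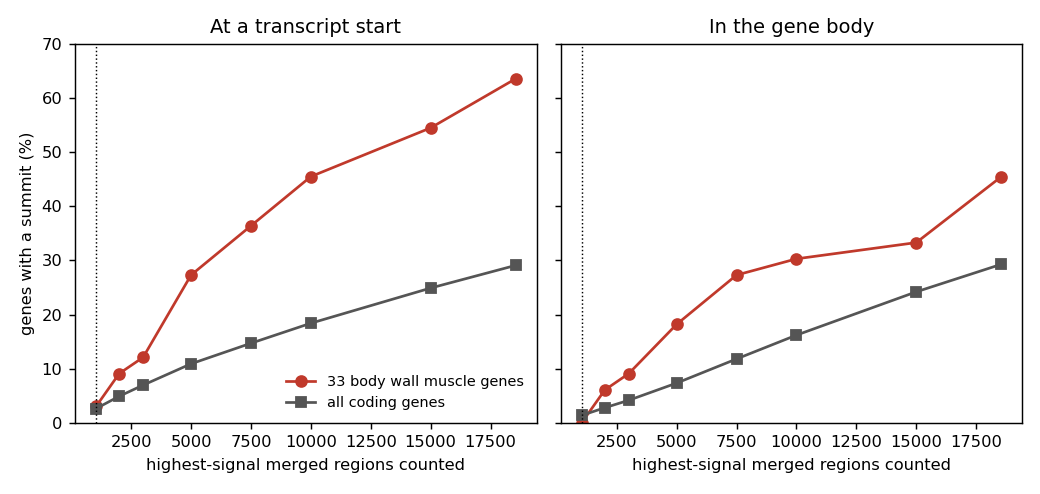
Share of genes with a summit (vertical axis, percent) among the highest-signal merged regions, counted cumulatively (horizontal axis), at a transcript start (left) and in the gene body (right). Body wall muscle genes are red circles, all coding genes grey squares, and the dotted line marks the 1037 optimal peaks. At starts the shares are 3.03% and 2.63% at that line and 63.6% and 29.1% over the whole list.

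Muscle genes are longer and have somewhat wider start windows, with a median gene length of 3378 bp against 2027 bp for all coding genes and a mean start window of 1919 bp against 1459 bp. The difference at starts was present per length as well: merged summits numbered 44.2 per 100 kb of start window for the muscle genes and 24.3 for all coding genes. Among genes with a single annotated start, 14 of 22 muscle genes (63.6%) had a merged summit there, against 23.8% of all such genes. The optimal list had 1.58 summits per 100 kb of muscle start window, against 1.89 for all coding genes.

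Distances to optimal peaks elsewhere were close to those of all genes. The nearest optimal summit was a median of 39275 bp from a muscle start and 46456 bp from a start over all coding genes. Within 5000 bp there were 3 muscle genes (9.09%, against 8.69%): unc-112 at 413 bp, unc-22 at 1811 bp and deb-1 at 1840 bp. The peak near deb-1 lay nearest to the start of rps-4. The farthest gene was pat-10, at 291532 bp.

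All 28 merged regions at muscle starts had their summits upstream of the nearest own start, against 84.5% of such summits over all coding genes. The window itself extends 1000 bp upstream and 200 bp downstream. The median position was −324.5 bp, with a range from −946 bp at pat-6 to −22 bp at cpn-3. Within 250 bp lay 12 of the summits, another 6 lay within 500 bp, and 10 lay farther out. By annotation of the gene itself, 20 were upstream of it, 6 in an intron, 1 in a 5′ UTR and 1 in a coding exon. The start windows and bodies of different muscle genes do not overlap, also not among the clustered actins. No summit could therefore be counted for 2 of them. Of the 28 regions 5 were overlapped by a region of all 4 replicates (17.9%), against 13.1% of all merged regions, and 6 were overlapped by 1 replicate only. Among the 5 were the overlapping act-4 regions of ranks 1341 and 2767, matched by the same replicate regions.

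**Figure D4:**
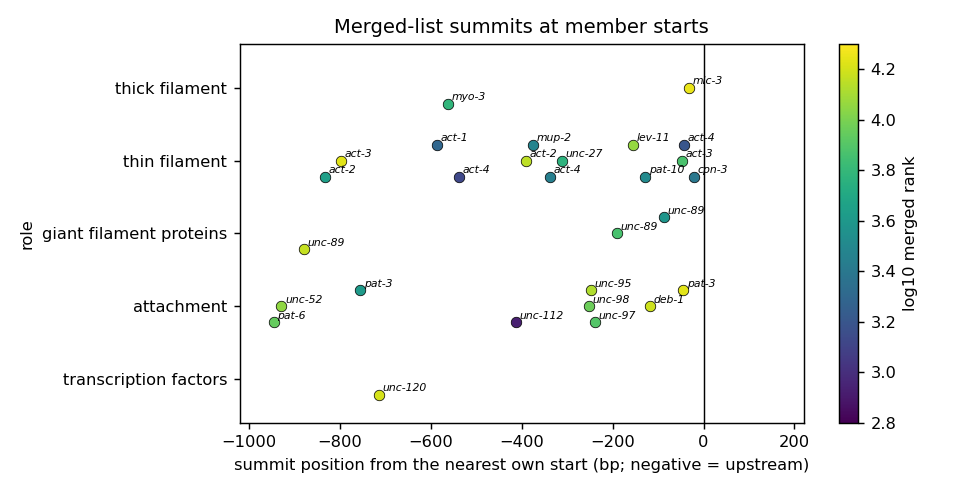
Positions of the 28 merged-list summits at starts of body wall muscle genes, in bp from the nearest own start (horizontal axis, negative for upstream), by role (vertical axis; points are offset vertically for legibility). Colour gives the merged rank on a log10 scale, dark for high signal. All points lie left of the start, and the darkest is unc-112 at −413 bp.

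In gene bodies, 0 of 33 muscle genes had an optimal summit, against 1.37% of all coding genes. In the merged list 15 of them did (45.5%, against 29.3%). The replicate lists held a body summit for 23 in replicate 1 (69.7%, against 44%), 21 in replicate 2 (63.6%, against 47.1%), 23 in replicate 3 (69.7%, against 44.9%) and 20 in replicate 4 (60.6%, against 45.5%). Among the 1037 highest regions of a replicate, there were 0 muscle genes in replicate 1 (against 1.41%) and 0 in replicate 2 (against 1.61%). In replicate 3 there was 1 (3.03%, against 1.68%) and in replicate 4 there was 1 (3.03%, against 2.41%), act-4 in both.

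Per length, the body values depended on the length of the genes. The 43 merged summits in muscle bodies made 13.1 per 100 kb, against 16.1 for all coding genes, a total to which the 5 muscle genes of 10 kb and over gave 25 summits. Those 5 genes had 11.2 per 100 kb, against 20.5 for all coding genes of that length, and their values in replicates 1 to 4 were 27.3, 31.8, 27.3 and 24.2 against 32.4, 32.8, 32.5 and 29.3. Long muscle genes were thus lower in the merged list and in each replicate. The 9 muscle genes of 5 to 10 kb had 17.1 merged summits per 100 kb, against 17.3, and 46.7, 42.1, 38.9 and 28 in the replicates, against 28.2, 30, 29.3 and 27.4. The 8 muscle genes of 2 to 5 kb were higher in the merged list, with 19.6 per 100 kb against 13.8, and in each replicate, with 39.2, 50.9, 39.2 and 31.3 against 25.3, 27.8, 26.5 and 26.3. The 11 muscle genes under 2 kb had 2 merged summits, 13.3 per 100 kb against 12.5. These classes are small and no difference was tested.

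The 3 giant filament proteins hold much of that length. The titin-like gene ttn-1, the longest at 81724 bp, had 7 merged summits in its body and 14, 22, 20 and 14 in replicates 1 to 4. Its best merged body rank was 5953, at a summit nearer to the start of exp-2 than to its own. The merged summits of ranks 9398 and 10158 also lay within exp-2. No merged summit lay at a ttn-1 start, and the nearest one, of rank 1876, was 1505 bp upstream. Start summits of ttn-1 were listed in replicates 2 and 4, at ranks 20979 and 3047. The obscurin gene unc-89 had 7 merged body summits, of which that of rank 6202 also lay within clec-89, and 16, 15, 17 and 17 in the replicates. Its starts were listed in every replicate, with best ranks of 2556, 3738, 3815 and 5204 at 43.96, 45.79, 45.75 and 11.57 kb along the gene in replicates 1 to 4. The merged start region of rank 3817, at 45.72 kb, was overlapped by regions of replicates 2 and 3 only. Twitchin, encoded by unc-22, had 2 merged body summits but 11, 15, 11 and 13 in the replicates, and its starts were listed in all 4 at low ranks, 24507, 8879, 17273 and 27863.

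**Figure D5:**
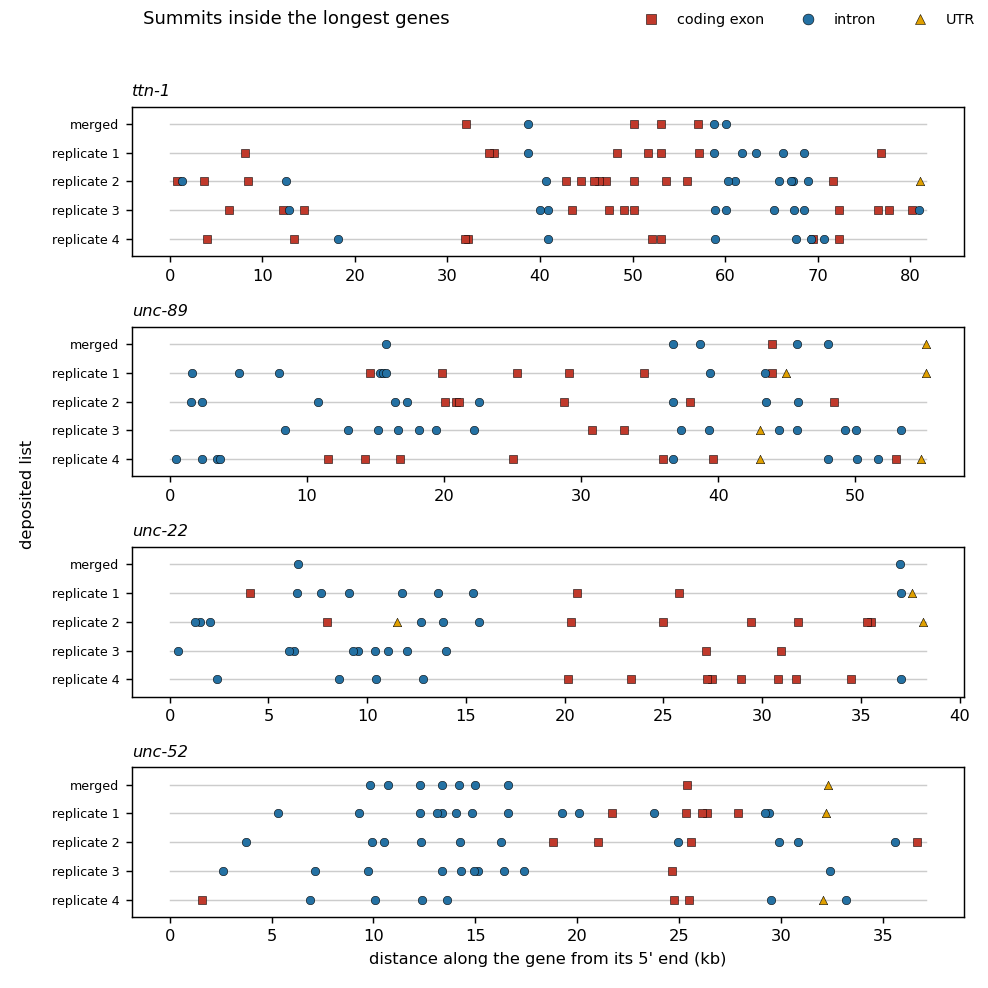
Summits along the 4 longest body wall muscle genes, in kb from the 5′ end of the gene (horizontal axis), with 1 line for each deposited list. Red squares are summits in coding exons, blue circles in introns and orange triangles in UTRs. In unc-52, 7 merged summits cluster in introns between 9.83 and 16.58 kb, and in unc-22 the merged list keeps 2 summits where the replicates list 11 to 15.

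Replicate 4 placed several muscle bodies high. Its best body ranks were 842 for act-4 in an intron, 1125 for unc-22 in a coding exon and 1280 for mlc-1 in a 3′ UTR. Next came 1339 for unc-15, 1548 for unc-52 and 1793 for unc-89, all in introns, and 1764 for ttn-1 in a coding exon. Only act-4 was among the 1037 highest regions of replicate 4 (3.03%, against 2.41% of all coding genes). That share of all coding genes was 1.41%, 1.61% and 1.68% in replicates 1 to 3. For the ranks below, no share of all coding genes was taken. The long genes ttn-1, unc-89, unc-22 and unc-52 had 14, 17, 13 and 10 body summits in replicate 4. In the merged list the best body ranks of mlc-1, unc-15, unc-22, ttn-1 and unc-89 were 17703, 7880, 6097, 5953 and 3817, farther down the list than in replicate 4. For act-4, replicate 3 placed the body higher than replicate 4 did, at rank 176. For unc-15, replicate 3 also had a high rank, 1043, in the 3′ UTR, and for unc-52 the merged list and replicates 1 and 3 had high ranks too, as given above. Coding exons held 20.9% of the merged body summits of muscle genes, against 24.1% over all coding genes, and 33.3%, 44.2%, 26.7% and 43.4% in replicates 1 to 4, against 28.7%, 35.7%, 30.3% and 34.4%. Coding exons make up 50% of the body length of the muscle genes and 38.3% over all coding genes. The part of exon content in these shares was not tested.

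Sites were searched for within 50 bp of the summit on both strands. TGACAG was found in 2 of the 28 start regions (7.14%), those of unc-112 and pat-10, against 4.97% of merged regions at the starts of all coding genes and 10.1% of optimal peaks. TGATTGAT, a composite site of PBX and Hox-type proteins, was found in 0 of 28, against 1.13%, and TGATNNAT, its looser form that contains it, in 0 of 28, against 8.07%. GAGAGAGA was found in 2 (7.14%), at unc-112 and pat-3, against 2.5%. The E-box CANNTG, the site of bHLH factors such as the muscle factor HLH-1, was found in 12 (42.9%), against 34.1%, and CACGTG, which is one form of it, in 1 (3.57%), against 2.28%. The CArG box of SRF-type factors was found in 0, against 0.323%. The windows at muscle starts had a median GC content of 45%, against 37.6% at the starts of all coding genes, 36.6% over all merged regions and 47.5% for optimal peaks. With 28 regions each count is small and no difference was tested.

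Other genes of muscle structure and function were counted from 5 companion lists with 79 matched genes, also drawn up with earlier results known. Of these, 3 had an optimal summit at a start (3.8%, against 2.63% of all coding genes), 42 had a merged one (53.2%, against 29.1%) and 53 had a merged summit in the body (67.1%, against 29.3%). The companion genes are long, with a median of 7288 bp and 62% of them at 5 kb or over, against 16.2% of all coding genes. Of all coding genes of 5 to 10 kb 62% had a merged body summit, and of those of 10 kb and over 87.3%. The list of dense body and M-line proteins had merged start summits at 13 of 17 genes, with best ranks of 2899 for dim-1, 3150 for lim-9 and 3824 for mlp-1. Excitation and calcium genes had them at 12 of 22, led by ccb-1, a calcium channel β subunit gene with an optimal peak of merged rank 677, its summit 995 bp upstream, and then by the acetylcholine receptor subunit genes unc-29 at 2958 and lev-8 at 3288. Other filament isoforms and actin turnover genes had them at 8 of 16. The actin-capping gene cap-2 (merged rank 282) and the cofilin gene unc-60 (566) had optimal peaks, and mlc-5 followed at 3828, with its summit 750 bp from the mlc-5 start but 72 bp from that of hip-1. The cap-2 region is shared too: its summit was 273 bp from the cap-2 start and 203 bp from that of gmps-1. Basement membrane and epidermal attachment genes had merged start summits at 7 of 18, the best being mua-6 at 1420, pat-12 at 3355 and vab-10 at 4236. Of 6 muscle and M lineage factors 2 had one, hlh-1 at 7297 and mls-2 at 18466.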

How the data were processed

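Members and companion lists were chosen with earlier results of these data known. The authors deposited, per the notes with the files, region lists with peaks and background for each replicate (from its alignment and a control) and for the merged replicates, and a list of optimal peaks derived from them under the irreproducible discovery rate (IDR). Each deposited region has the authors' signal value, a −log10 q-value and a summit offset. Which aligner and caller made them is not given in the sources used here. The lists hold no read counts, so depth is unknown and no interval for counting error was given. The ce11 lists were used and the ce10 lists were not.

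Coordinates are 1-based on ce11. Genes came from Ensembl release 115 and sequences from the NCBI RefSeq WBcel235 genome. Regions were ranked by signal within a list, without the 30 mitochondrial regions each of replicates 3 and 4. Rank within the starts or body of a gene is that of its best summit there, and a region's replicate ranks are those of replicate regions overlapping it by at least 1 bp. Every listed muscle gene is reported. Of each companion list, the up to 3 best merged ranks at a start and every gene with an optimal peak there are reported. Start sequences were taken from the optimal peak and up to 6 next regions clear of UTRs and not on chromosome I. Of these sequences 5 are shown. Those not shown, of an act-4 region of rank 2767 and an act-2 region of rank 4356, hold no marked pattern. Scripts used Python 3.11.15, numpy 2.4.6 and matplotlib 3.10.9 and were tested on simulated data. No per-sample column of a series table was unused (0). No test across genes was run, as there is 1 group. Alternatives were other start windows, overlap in place of summits, the most upstream start alone, stricter lists, other numbers of highest regions and leaving out each replicate.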

Additional observations from a re-analysis of the deposited data

How the results depend on the processing

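Of 38 alternatives, 32 left the counts and shares within the limits set for them, and 6 moved one. Some of the 32 could not have moved, since a count of 0 cannot rise with fewer regions, narrower windows or fewer replicates. The 6 that moved one were as follows. With a window reaching 2000 bp upstream, 2 muscle genes, unc-112 and unc-22, had an optimal summit at a start (3.82% of all coding genes did), and with only the 518 optimal peaks of higher signal 0 did (1.42%), where the count reported is 1. For start summits among the highest regions of at least 2 replicates, where the count reported is 0, taking the 2074 highest regions of each gave 2, act-1 and act-4 (4.1% of all coding genes), and 2000 bp upstream gave 2, act-4 and unc-22 (3.36%). The mean share of muscle genes with a start summit among the highest regions was 1.52%. It became 5.3% ± 2.9 with 2074 regions and 5.3% ± 2.9 with 2000 bp upstream (SD, n = 4), against 4.5% and 3.53% of all coding genes. Leaving out each replicate in turn gave a mean share from 1.01% to 2.02%. The count stayed at 0 each time, which was fixed in advance because it cannot rise with fewer replicates. The number of muscle genes with a merged start summit, 21, ranged from 15 to 28, and the share of all coding genes with it from 17.3% to 40.4%. The number with a merged body summit, 15, ranged from 10 to 21, and the share of all coding genes with it from 15% to 35.9%. No paired analysis was possible because there is only 1 group. Limits are the single group without an untagged control, the unknown depth, and merged and replicate lists that include background. Further limits are the 33 genes and the label sets of 2 replicates each, within which differences could not be tested.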
